A study of Zea mays with 11 samples.

Results

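Dissected endosperm of the maize inbred line Mo17 was compared between a late group, collected 15, 20 and 25 days after pollination, and an early group, collected 7, 9 and 11 days after pollination. The groups hold 6 of the 11 bisulfite libraries of the series, 3 late and 3 early, and were formed from the day on each label. Endosperm of day 10 was left out for its odd coverage and endosperm of day 13 as the midpoint, and both are given beside the results as libraries that formed neither group. The members described are 39475 nuclear gene models, each with a gene body and an upstream region. All plants were field-grown and their ears were self-pollinated, so both groups share 1 genotype. The series also holds whole seeds and a day-13 ear leaf of the same line, and its title names starch synthesis, microRNAs and DNA methylation as its subject. Each day has 1 library. The p-values below therefore measure the spread between days of a group, which may in part be technical, and day 15 against day 25 counts as spread.

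Plants methylate cytosine in 3 sequence contexts, CG, CHG and CHH, where H is A, C or T. CG methylation is copied at replication by a maintenance enzyme, CHG methylation is kept up by chromomethylases that read a histone mark, and CHH methylation has to be laid down anew, in part by a pathway guided by small RNAs. In maize, CHH methylation is concentrated in short stretches next to genes, where that small-RNA pathway acts at the edge of neighbouring transposons. The endosperm is the nourishing tissue of the seed: its early cells divide and its later cells fill with starch and with zeins, the storage proteins of the kernel.

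In the nuclear genes 157217314 to 167694032 cytosine calls were counted per late library and 168157327 to 218350472 per early library, so the late libraries were the shallower ones. The median gene had 814 to 878 upstream CHH calls in late libraries and 879 to 1148 in early ones. Chloroplast DNA is thought to carry almost no methylation, and what is read there reflects incomplete conversion. Its CHH level over gene bodies was 0.697% to 0.727% in late libraries and 0.798% to 0.855% in early ones. Day 11 had the most calls of the 6 libraries and the lowest mean CG and CHG levels, in bodies and upstream. The files hold no expression values with which to check the tissue by its markers. The imprinted Polycomb gene fie1 (chromosome 4, 35757180 to 35763186, minus strand), known for being less methylated in endosperm than in other tissues, had body CG levels of 50.31%, 29.66% and 21.47% on days 15, 20 and 25, 25.00%, 27.56% and 33.09% on days 7, 9 and 11, and 84.07% in the leaf. Every endosperm library of both groups was thus below the leaf at that gene.

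Upstream CHH methylation was higher in late than in early endosperm. The mean level over 37898 genes was 4.85%, 4.98% and 5.27% on days 15, 20 and 25, and 3.98%, 3.81% and 3.47% on days 7, 9 and 11. All late libraries lay above all early libraries. The group means were 5.03% ± 0.22 in late and 3.75% ± 0.26 in early endosperm (SD, n = 3 each), a difference of 1.28 percentage points. In an exact two-sided permutation test p was 0.1, the smallest value that the 20 splits of 3 against 3 libraries allow, so no single value of this design can reach 0.05. In the mean the excluded libraries lay between the groups, with 4.28% on day 10 and 4.06% on day 13. In the median over genes they did not. Day 10 had 3.14%, within the late range of 3.10% to 3.35%, and day 13 had 2.59%, within the early range of 2.46% to 2.88%. The chloroplast CHH level over upstream regions was 0.926% on day 10 and 0.651% on day 13. In the 6 libraries of the groups it was 0.698% to 0.811%. This level was not subtracted from the medians of days 10 and 13. The leaf had a mean of 5.23%, within the late range. In bulk tissue a change in the mix of cell types and a change within cells cannot be told apart.

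CG and CHG methylation differed less clearly between the groups. The mean upstream CG level was 60.9%, 61.1% and 60.2% on days 15, 20 and 25, and 60.6%, 58.6% and 56.3% on days 7, 9 and 11. The groups overlapped, with 60.7% ± 0.473 in late and 58.5% ± 2.16 in early endosperm (SD, n = 3 each, exact permutation p = 0.2, two-sided as are all below). The mean upstream CHG level was 47.1%, 43.9% and 44.3% on the late days and 50.7%, 48.5% and 42.2% on the early ones. Days 7 and 9 were above all late libraries and day 11 was below them, which left a difference of −2.03 points (exact permutation p = 0.6). Without day 11 the difference was −4.52 points.

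Gene bodies showed the same weak contrast. Mean body CG was 29.7% ± 0.284 in late and 28.9% ± 0.933 in early endosperm (exact permutation p = 0.3, n = 3 each). Mean body CHG was 17.7% ± 0.914 in late and 18.6% ± 1.81 in early endosperm (exact permutation p = 0.6, n = 3 each). Mean body CHH was 1.61% ± 0.0406 in late and 1.55% ± 0.122 in early endosperm (exact permutation p = 0.5, n = 3 each). The groups overlapped in all 3 body contexts.

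**Figure D1:**
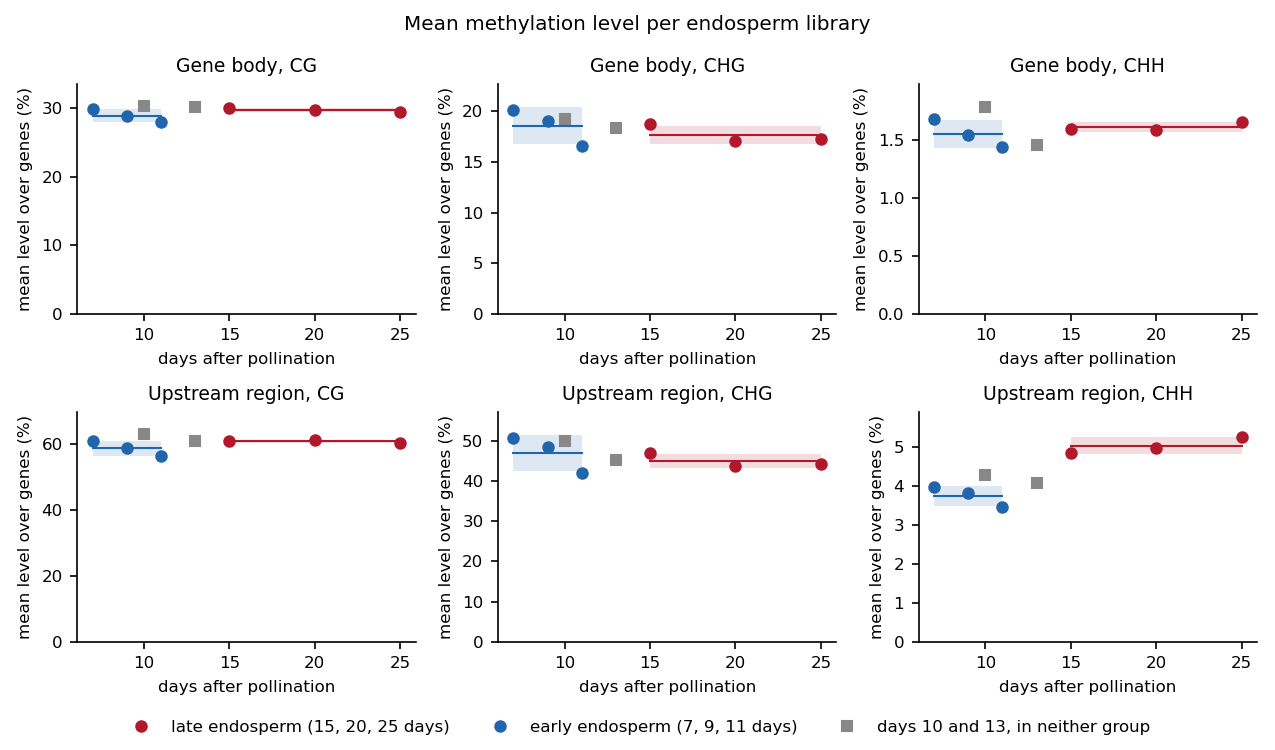
Mean methylation level over nuclear genes in percent (vertical axis) against days after pollination (horizontal axis), in 6 panels for gene body and upstream region in CG, CHG and CHH. Points are libraries, lines the means of 3 libraries of a group, bands ± 1 SD, and grey squares days 10 and 13. In the upstream CHH panel the late libraries, at 4.85% to 5.27%, are all above the early ones, at 3.47% to 3.98%, while the groups overlap in the other 5 panels.

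The median gene body behaved unlike the mean in CHH. Its level was 1.01%, 0.97% and 1.01% on days 15, 20 and 25, and 1.21%, 1.12% and 1.11% on days 7, 9 and 11, so the late libraries were all lower (−0.15 points, exact permutation p = 0.1). These levels are close to those of the organelles, and the organelle levels differed between the groups in the same direction. With each library's chloroplast CHH level subtracted, the medians were 0.297%, 0.273% and 0.283% in late and 0.355%, 0.322% and 0.293% in early libraries. The groups then overlapped in the median (−0.0389 points, exact permutation p = 0.2), and the mean was higher in late endosperm by 0.17 points. With the mitochondrial level subtracted, the median turned to 0.038 points higher in late endosperm (exact permutation p = 0.4). Upstream CHH kept its direction under both subtractions, with mean differences of 1.32 and 1.43 points and no overlap.

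The upstream CHH difference sat in the upper part of the distribution. The 95th percentile over genes was 15.1%, 15.5% and 16.3% on days 15, 20 and 25, against 11.0%, 11.0% and 9.59% on days 7, 9 and 11. At the 10th percentile the order turned, with 0.86%, 0.83% and 0.87% on the late days and 1.06%, 0.93% and 0.97% on the early ones, a range close to the organelle levels. Genes with an upstream CHH level of 10% or more made up 12.2%, 13.1% and 14.6% of genes in late libraries and 6.45%, 6.17% and 4.47% in early ones. The lowest late library thus had a larger share of such genes than the highest early library. Gene bodies showed the same at a smaller scale: 1.36%, 1.38% and 1.57% of bodies had a CHH level of 10% or more in late libraries, and 0.887%, 0.780% and 0.473% in early ones.

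Genes that carry much upstream CHH methylation in the leaf, a library outside both groups, differed the most in points. In the 5055 genes at 10% or more in the leaf, late libraries had 11.8%, 12.0% and 12.8% and early libraries 8.87%, 8.62% and 7.55%. The group means were 12.19% ± 0.52 and 8.35% ± 0.70 (SD, n = 3 each), a ratio of 1.46. In the 8116 genes between 5% and 10% in the leaf, late libraries had 6.13%, 6.38% and 6.80% and early libraries 4.81%, 4.65% and 4.22%, a ratio of 1.41. In the 24606 genes under 5% in the leaf, late libraries had 2.99%, 3.07% and 3.21% and early libraries 2.69%, 2.54% and 2.37%, a ratio of 1.22. The groups did not overlap in any of the 3 classes. Incomplete conversion is part of each level and weighs most on the class with the lowest.

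**Figure D2:**
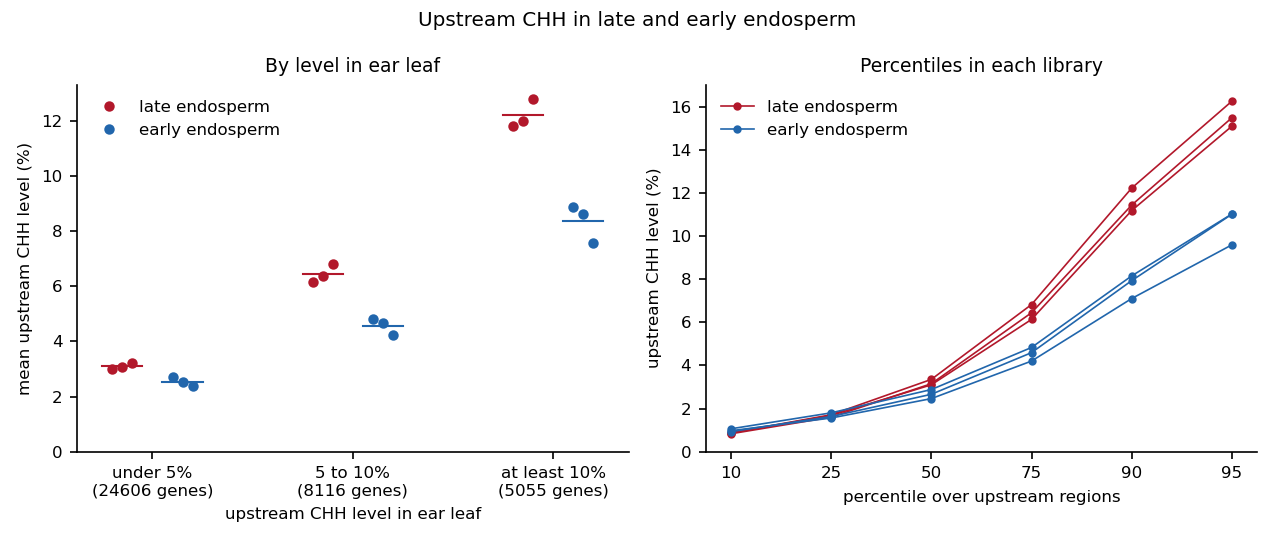
Left, mean upstream CHH level in percent (vertical axis) of genes in 3 classes of their leaf level (horizontal axis), 1 point per library, with a line at each group mean. Right, percentiles of the upstream CHH level over genes (percent) in each library. The late points are above the early ones in every class, and furthest above at 10% or more in the leaf, with means of 12.19% and 8.35%.

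The difference was found across the genome and in several kinds of genes, in groupings chosen after the values were seen. On the 10 chromosomes it ran from 1.10 points on chromosome 10 to 1.35 points on chromosome 8. Genes with their nearest upstream neighbour within 1 kb had 3.28% in late and 2.63% in early endosperm, a ratio of 1.25, and those with the neighbour over 20 kb away a ratio of 1.35. Models over 6 kb long had 5.76% in late and 4.23% in early endosperm, a ratio of 1.36, and models under 1 kb a ratio of 1.30. Genes whose bodies are methylated in CG and CHG in the leaf, the pattern of transposons and silenced genes, had 4.36% upstream in late and 3.36% in early endosperm, a ratio of 1.30. Genes with unmethylated bodies had 5.28% in late and 3.90% in early endosperm, a ratio of 1.36, and genes with body methylation in CG only a ratio of 1.37. The groups overlapped in none of these classes. The class with the short upstream gap also had the lowest levels.

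Gene by gene, all late libraries were above all early libraries in upstream CHH at 6487 genes, 17.1% of those measured, and below them at 1267 genes, 3.34%. The higher genes differed by a median of 3.63 points and the lower ones by a median of −1.10. A difference of 5 points or more was found at 2150 of the higher and 39 of the lower genes, and one of 10 points or more at 362 and 11. This split rests on absolute levels. With each library's median subtracted, 4406 genes were higher and 4387 lower, and with each library's mean subtracted, which gives weight to the highly methylated genes, 2766 were higher and 10069 lower. With the chloroplast level subtracted, 6743 genes were higher and 1147 lower. With any 1 library left out, which makes separation easier to meet, 8119 (without day 11) to 9999 (without day 15) genes were higher and 2040 (without day 7) to 2851 (without day 11) lower.

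The other measures gave smaller and mixed counts. In upstream CG late endosperm was above at 4837 genes (13.2%) and below at 910 (2.48%). In upstream CHG it was above at 1134 genes (3.09%) and below at 2606 (7.11%). For bodies the counts were 2704 above (8.28%) and 1618 below (4.95%) in CG, 1214 above (3.69%) and 2586 below (7.85%) in CHG, and 1628 above (4.85%) and 2789 below (8.3%) in CHH. With library medians subtracted, all 5 splits moved by over 10 points of their share: upstream CG to 1730 above and 2565 below, upstream CHG to 2607 and 2111, body CG to 3250 and 899, body CHG to 1862 and 1712, and body CHH to 2779 and 1558. With library means subtracted they were 2343 and 2221, 2306 and 2629, 1789 and 3336, 1531 and 1150, and 1390 and 3520 in the same order. Subtracting the medians turned the direction in all but body CG, and subtracting the means turned it in body CG and body CHG. The CHG counts leaned on single early libraries. Without day 11 they were 1491 above and 11142 below upstream and 1923 above and 6809 below in bodies. Without day 7 they were 3494 above and 3184 below upstream, which turns the direction, and 3114 above and 3759 below in bodies. Fewer libraries make separation easier to meet, so each such count is larger by construction.

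**Figure D3:**
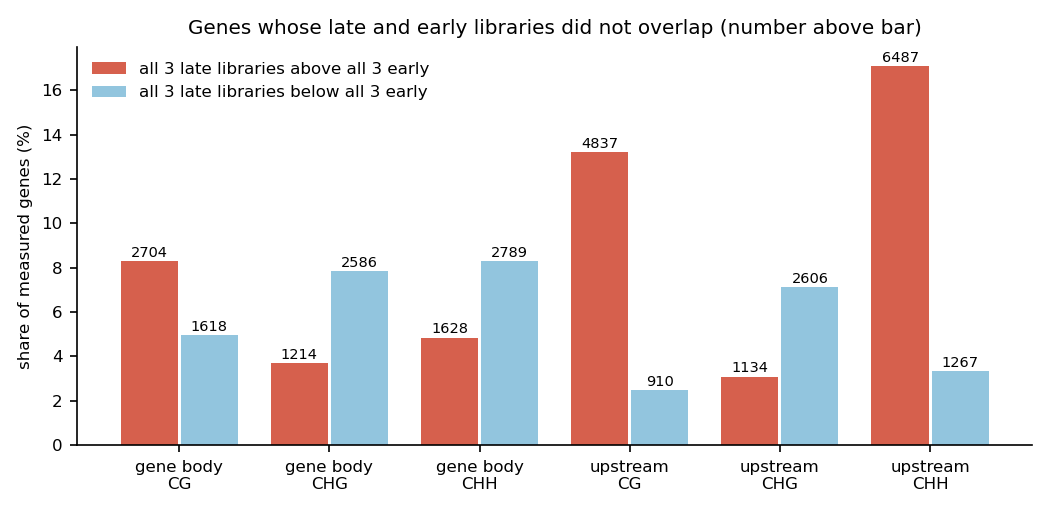
Share of measured genes in percent (vertical axis) at which the 3 late libraries were all above, or all below, the 3 early libraries, for each region and context (horizontal axis), with the number of genes over each bar. The tallest bar is upstream CHH above, 17.1% or 6487 genes, against 3.34% below.

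No gene passed in upstream CHH with limma after Benjamini-Hochberg adjustment over 37898 genes (0 called, 0.0%; smallest adjusted p 0.0537). Without adjustment 5384 genes (14.2%) had p under 0.05, of which 5057 (13.3%) were higher and 327 (0.863%) lower in late endosperm. A quasi-binomial model on the methylated and total calls, which weights each library by its depth, called 1091 genes (2.88%), 1090 higher and 1 lower. At 1086 of the 1091 the groups did not overlap, where 17.1% of all measured genes were above and 3.34% below without overlap. The same 6 libraries chose these genes, so the separation and the group levels are a description. Their mean level was 12.49%, 13.08% and 13.72% on days 15, 20 and 25, and 5.97%, 6.07% and 6.01% on days 7, 9 and 11. Days 10 and 13, which did not enter the model, had 7.21% and 8.99%, between the groups. Libraries left out of such a choice tend to fall there whatever their day. These genes were deeply covered, with a median of 1480 calls in the thinnest library against 630 over all genes tested. The lower gene, GRMZM2G000749 (chromosome 1, 12099073 to 12107130, plus strand), named here for its direction after its values were seen, had 0.44%, 1.21% and 0.55% on the late days and 4.69%, 9.38% and 8.78% on the early ones (adjusted p = 0.0253 in the quasi-binomial model).

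Elsewhere few genes passed. With limma 0 of 30430 genes (0.0%) were called in body CG, where 2308 (7.58%) had an unadjusted p under 0.05. The same counts were 1 (0.00318%) and 1855 (5.91%) of 31414 in body CHG, 0 and 2222 (6.62%) of 33585 in body CHH, 0 and 2864 (7.81%) of 36655 in upstream CG, and 0 and 2288 (6.25%) of 36620 in upstream CHG. The quasi-binomial model called 0 genes in body CG, body CHG and upstream CG, 33 in body CHH (0.0983%), all higher in late endosperm, and 1 in upstream CHG (0.00273%), lower. The body CHG gene and the upstream CHG gene lie side by side on chromosome 4.

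That place lies at a pair of genes that point away from each other, with 639 bases between their starts. GRMZM2G410487 (chromosome 4, 172996195 to 172997403, minus strand) had body CHG levels of 1.96%, 0.69% and 0.43% on days 15, 20 and 25, against 19.72%, 20.65% and 20.22% on days 7, 9 and 11, a difference of −19.17 points (SE 0.719, limma adjusted p = 0.0314). Its groups were far apart, with 7.01% on day 10, 6.25% on day 13 and 1.57% in the leaf. The thinnest library, with 153 calls, had a 95% Wilson interval of 0.669% to 5.61%, which, as all such intervals, covers counting error only.

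Body CG at that gene was 5.51%, 0.00% and 0.58% on the late days and 18.23%, 16.06% and 17.11% on the early ones (limma adjusted p = 0.443). The neighbour GRMZM2G108284 (172998043 to 173001754, plus strand), singled out after its values were seen, had upstream CHG levels of 1.38%, 0.66% and 1.21% on the late days and 14.83%, 11.95% and 14.90% on the early ones (quasi-binomial adjusted p = 0.0464, limma 0.793). Upstream regions of genes that start this close can share cytosines with the neighbour's body, so these are not independent measurements. Upstream CG of GRMZM2G410487 was 1.94%, 1.37% and 1.48% on the late days and 2.47%, 1.39% and 0.81% on the early ones. Body CG of GRMZM2G108284 was nearly the same, with 1.76%, 1.38% and 1.49% and then 2.40%, 1.42% and 0.85%. Body CHH at GRMZM2G410487 was at most 3.06% in the 6 libraries. The body call did not pass with the quasi-binomial model (adjusted p = 0.203), on the arcsine scale, with day 10 or day 13 added, or without any 1 of the 6 libraries.

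Most genes of the starch and storage programme had higher upstream CHH levels in late endosperm. Over all 37898 genes tested, 66.9% had a difference above 0, 17.1% had all late libraries above all early ones, and the median difference was 0.57 points. On the starch synthesis list 15 of 18 measured genes were above 0, 8 had all late libraries above all early ones, and the median was 1.52 points. On the list of storage proteins and their regulators these counts were 28 and 15 of 33, with a median of 1.85 points. Neither list holds a gene that passed with limma; 2 and 5 of their members passed with the quasi-binomial model, which called 2.88% of all genes. With library medians subtracted the medians were 0.987 and 1.31 points, against 0.0367 for all genes. With library means subtracted they were 0.24 and 0.567 points, against −0.71 for all genes.

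On the starch list ae1 had the largest upstream CHH difference, and bt1 and du1 passed the quasi-binomial model. For ae1, the starch branching enzyme whose loss raises amylose (GRMZM2G032628, chromosome 5, 168451664 to 168468750, minus strand), the upstream CHH level was 5.96%, 12.02% and 8.37% on days 15, 20 and 25 and 3.19%, 2.35% and 3.22% on days 7, 9 and 11, a difference of 5.86 points (SE 1.57, limma adjusted p = 0.198). Its late libraries were all above its early ones, though neither model called it. For bt1, which carries ADP-glucose into the plastid (GRMZM2G144081, chromosome 5, 112928080 to 112930204, minus strand), the levels were 6.74%, 5.36% and 7.17% against 1.29%, 2.37% and 3.49%, a difference of 4.04 points (SE 0.827, limma adjusted p = 0.128, quasi-binomial 0.0379). For du1, a starch synthase (GRMZM2G141399, chromosome 10, 59506710 to 59518288, plus strand), they were 5.94%, 11.91% and 9.12% against 4.17%, 2.63% and 3.28% (limma adjusted p = 0.212, quasi-binomial 0.0466). At each of the 3 genes the lowest late library exceeded the highest early one, and day 15 was well below day 20 at ae1 and du1. These and the other list members given for passing the quasi-binomial model were picked for it after the values were seen, apart from those the rule for named genes chose.

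The shrunken2 gene, sh2, which encodes the large subunit of ADP-glucose pyrophosphorylase, a controlling enzyme of starch synthesis (GRMZM2G429899, chromosome 3, 216414684 to 216424048, minus strand), differed in its body. Its body CHH level was 3.66%, 3.73% and 2.82% on days 15, 20 and 25 and 1.07%, 1.0% and 0.89% on days 7, 9 and 11, a difference of 2.42 points (SE 0.324, limma adjusted p = 0.235, quasi-binomial 0.0379). The late libraries stood apart from the early ones, and day 13, with 2.29%, was nearer the late group than day 10, with 1.24%. Over the starch list as a whole, 14 of 19 genes had a body CHH difference below 0. Of all genes tested 19147 of 33585 were below 0, with a median of −0.0867 points.

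The zein genes include several with large upstream CHH differences. Zein genes lie in clusters of near-identical copies, so their reads can be shared between copies and single values are uncertain. For the alpha-zein z1A1_2 (GRMZM2G404459, chromosome 4, 5516523 to 5518566, plus strand) the level was 15.38%, 16.77% and 21.96% on days 15, 20 and 25 and 6.20%, 2.54% and 6.70% on days 7, 9 and 11, a difference of 12.89 points (SE 2.07, limma adjusted p = 0.0906, quasi-binomial 0.0329). Its thinnest library had 118 calls and a Wilson interval of 0.868% to 7.21%, which ends below every late level. The leaf had 3.37%, and day 13, with 8.89%, lay between the groups.

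A second alpha-zein, z1C2 (GRMZM2G397687, chromosome 4, 21312310 to 21313379, minus strand), had 16.36%, 15.43% and 17.21% in late and 3.71%, 5.89% and 8.70% in early libraries, a difference of 10.23 points (SE 1.36, limma adjusted p = 0.0738, quasi-binomial 0.0244). The gamma-zein gz50 (GRMZM2G138689, chromosome 7, 120173851 to 120175165, plus strand) had 8.32%, 5.58% and 9.07% in late and 1.99%, 2.33% and 2.62% in early libraries (limma adjusted p = 0.111, quasi-binomial 0.0271). The gamma-zein gz27 (GRMZM2G138727, chromosome 7, 120200894 to 120203011, plus strand), which helps to start protein bodies, was high in both groups, with 24.85%, 22.88% and 29.10% in late and 16.44%, 19.25% and 14.65% in early libraries (limma adjusted p = 0.145, quasi-binomial 0.0385). In none of these 3 genes did the groups overlap. One list member was lower in late endosperm without overlap. It is o7, an opaque-kernel gene, which had 2.02%, 0.52% and 0.79% in late and 2.49%, 2.31% and 2.06% in early libraries.

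In the same storage genes body CHG methylation was lower in late endosperm. The mean over 28 measured members was 35.4%, 28.9% and 29.0% on days 15, 20 and 25, 45.4%, 41.5% and 33.7% on days 7, 9 and 11, and 63.3% in the leaf. The late and early ranges overlapped, since day 11 was below day 15. Of the 28 members 21 were below 0 and 9 had all late libraries below all early ones, with a median of −4.36 points. All genes tested had a median of −0.337 points with 40.2% of them above 0, and 7.85% of all measured genes had all late libraries below. None passed with limma or the quasi-binomial model. The alpha-zein z1A2_3 (GRMZM2G026939, chromosome 4, 30060008 to 30061466, plus strand) had 40.26%, 27.08% and 28.00% in late and 77.52%, 61.16% and 56.67% in early libraries, a difference of −33.3 points (SE 6.74, limma adjusted p = 0.733), and 80.25% in the leaf. Its thinnest library had 48 calls and a Wilson interval of 16.6% to 41.0%.

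The list of transfer layer, aleurone and embryo-surrounding genes, which mark outer and basal endosperm cells, showed the same direction in CHG. In bodies 8 of 11 members were below 0 with a median of −4.87 points, and upstream 13 of 15 with a median of −4.59 points. Of all genes tested 18798 of 31414 were below 0 in bodies and 23288 of 36620 upstream, where their median was −1.58 points. The list means overlapped between the groups in bodies and upstream. Without overlap, 1 of the 11 was lower in bodies, and 1 of the 15 was lower and 1 higher upstream. Of all measured genes 7.85% were lower without overlap in bodies, and 7.11% were lower and 3.09% higher upstream. The member bap2, a basal layer protein (GRMZM2G152655, chromosome 4, 34264143 to 34265135, plus strand), had body CHG levels of 6.76%, 17.74% and 4.71% in late and 47.83%, 22.00% and 25.44% in early libraries (limma adjusted p = 0.839). The groups did not overlap, but the thinnest library had 46 calls. In upstream CHH the list's median of 0.37 points was under that of all genes, with 11 of 15 above 0. Its member mn1, the cell wall invertase miniature1 that unloads sucrose at the kernel's base (GRMZM2G119689, chromosome 2, 56806976 to 56810257, plus strand), had 9.22%, 7.73% and 4.33% in late and 2.29%, 3.72% and 2.53% in early libraries (limma adjusted p = 0.255, quasi-binomial 0.0994). Day 10, with 9.39% there, lay above all 6.

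**Figure D4:**
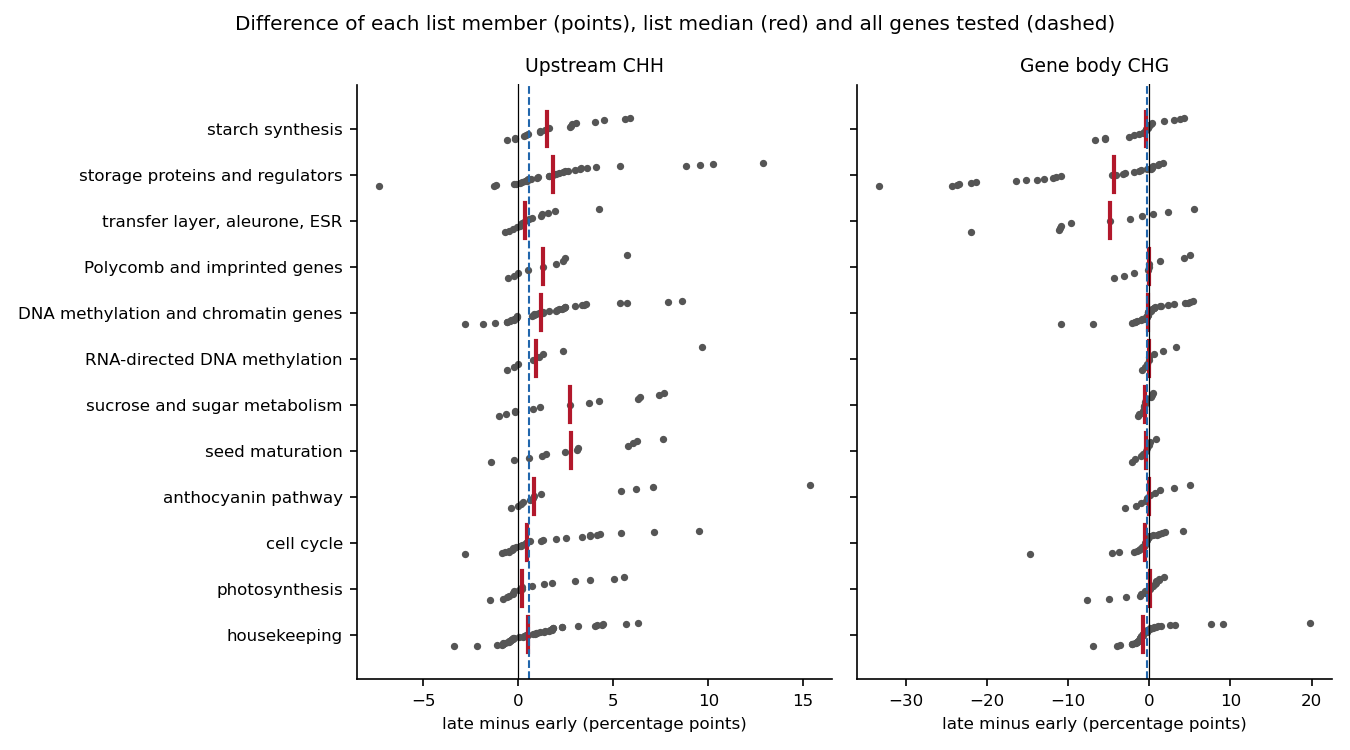
Late minus early difference in percentage points (horizontal axis) of each member of the 12 gene lists (rows), for upstream CHH and body CHG, with the list median in red and the median of all genes tested as a dashed line. In upstream CHH the storage median is at 1.85 and the starch median at 1.52 points, against 0.57 for all genes, and in body CHG the storage median is at −4.36, against −0.337.

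Lists outside the starch and storage programme also differed among themselves in upstream CHH. The medians of the sucrose and sugar list (13 genes, 9 above 0, 7 without overlap) and the seed maturation list (12 genes, 10 above 0, 3 without overlap) were 2.72 and 2.78 points, the highest of the 12. Over all genes 66.9% were above 0 and 17.1% above without overlap, so the count above 0 on the sucrose list was close to that background. Their hexokinase hex2 (GRMZM2G432801, chromosome 6, 160237817 to 160245075, minus strand) had 19.22%, 20.63% and 17.78% in late and 9.52%, 13.07% and 12.80% in early libraries (limma adjusted p = 0.0968, quasi-binomial 0.0447). The globulin gene glb3, on the maturation list (GRMZM2G410134, chromosome 6, 156534704 to 156535855, minus strand), had 10.48%, 10.84% and 11.31% in late and 4.36%, 5.01% and 5.94% in early libraries, a difference of 5.77 points (SE 0.612, limma adjusted p = 0.0643, quasi-binomial 0.0235). Day 13, with 10.17%, was close to the late libraries and day 10, with 6.36%, to the early ones. The late embryogenesis protein gene mlg3 (GRMZM2G096475, chromosome 6, 161966268 to 161967646, plus strand) had 14.71%, 16.04% and 16.26% in late and 10.90%, 9.71% and 7.72% in early libraries (limma adjusted p = 0.0906, quasi-binomial 0.0337). Both list members with the widest differences, the invertase gene incw3 and the globulin gene glb1, overlapped between groups. The gene incw3 had 27.05%, 6.84% and 3.24% in late and 9.18%, 3.08% and 1.80% in early libraries, with day 15 far above the other 2 late days.

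The photosynthesis list (17 genes, 10 above 0, 3 above without overlap, median 0.16), the housekeeping list (47, 29, 5 and 0.49) and the cell cycle list (28, 19, 7 and 0.44) had medians under that of all genes. The cell cycle gene cycD1, a D-type cyclin (GRMZM2G006721, chromosome 9, 147800047 to 147802265, plus strand), nonetheless had 25.63%, 28.97% and 25.63% in late and 15.33%, 19.96% and 16.48% in early libraries, a difference of 9.49 points (SE 1.57, limma adjusted p = 0.0937, quasi-binomial 0.0297). The retinoblastoma-related gene rrb2, a brake on cell division (GRMZM2G153150, chromosome 4, 192198768 to 192205936, plus strand), had 16.41%, 13.02% and 11.92% in late and 8.14%, 5.20% and 6.53% in early libraries (limma adjusted p = 0.119, quasi-binomial 0.0386). Neither gene's groups overlapped. The anthocyanin list had 10 of 12 genes above 0 and a median of 0.80 points. Over all genes 66.9% were above 0 and 17.1% above without overlap. On the photosynthesis list 1 gene was lower without overlap, against 3.34% of all genes. The list members named for the largest difference in photosynthesis, housekeeping and anthocyanin, lhcb6, tua6 and P, all overlapped between groups, and P had as few as 30 calls.

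Genes of the methylation machinery had shares above 0 in upstream CHH close to or under the 66.9% of all genes. On the list of DNA methylation and chromatin genes 23 of 36 were above 0, 8 had all late libraries above and 1 below (17.1% and 3.34% of all genes), and the median was 1.20 points, against 0.57 over all genes. On the lists of RNA-directed DNA methylation and of Polycomb and imprinted genes 5 of 8 and 6 of 9 were above 0, with medians of 0.93 and 1.31 points. With library means subtracted these 3 medians were −0.078, −0.35 and 0.0304 points, against −0.71 points for all genes. The methyl-binding domain gene mbd113 (GRMZM2G126545, chromosome 10, 105040589 to 105051505, minus strand) had 16.35%, 11.32% and 10.88% in late and 4.02%, 4.89% and 3.82% in early libraries, a difference of 8.61 points (SE 1.57, limma adjusted p = 0.105, quasi-binomial 0.0201). The methyltransferase gene met2 (GRMZM2G025592, chromosome 10, 142187476 to 142195230, minus strand) had 6.15%, 9.30% and 11.88% in late and 3.29%, 3.62% and 3.30% in early libraries (limma adjusted p = 0.183, quasi-binomial 0.0499). All late libraries exceeded all early ones at both genes, with met2 just inside the threshold of the quasi-binomial model. On the small-RNA list, rdr6, an RNA-dependent RNA polymerase (GRMZM2G145201, chromosome 3, 102518470 to 102521623, minus strand), had 18.77%, 18.10% and 20.93% in late and 12.61%, 8.57% and 7.63% in early libraries (limma adjusted p = 0.0906, quasi-binomial 0.0382). The Polycomb and chromatin assembly gene nfc101 (GRMZM2G137965, chromosome 3, 204071388 to 204078435, minus strand) had 7.11%, 7.08% and 13.15% in late and 4.86%, 2.75% and 2.63% in early libraries (limma adjusted p = 0.266, quasi-binomial 0.122). One gene on the chromatin list, sdg118, was lower, with 1.95%, 0.78% and 0.00% in late and 3.07%, 4.22% and 3.91% in early libraries.

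The genes with the smallest limma p-values in upstream CHH carry no symbol. GRMZM2G132000 (chromosome 2, 145018865 to 145022556, minus strand) had 20.72%, 21.17% and 22.09% on days 15, 20 and 25 and 8.96%, 8.36% and 7.82% on days 7, 9 and 11, a difference of 12.95 points (SE 0.614, limma adjusted p = 0.0537, quasi-binomial 0.0176). GRMZM2G173358 (chromosome 9, 92483549 to 92487268, plus strand) had 25.10%, 26.52% and 26.19% in late and 6.98%, 8.76% and 5.00% in early libraries, a difference of 19.02 points (SE 1.08, limma adjusted p = 0.0537, quasi-binomial 0.0278). GRMZM2G179346 (chromosome 6, 145123773 to 145126701, minus strand) had 24.68%, 25.94% and 26.89% in late and 13.76%, 14.29% and 13.56% in early libraries (limma adjusted p = 0.0537, quasi-binomial 0.0176). Each was steady within a group and far apart between groups, which choice by the smallest p-values favours. The leaf stood on either side, with 6.57% at GRMZM2G132000 and 40.98% at GRMZM2G173358. Day 13 had 14.19% and 10.08% at the same genes, between the groups, where a library left out of the choice tends to fall. Among genes with a symbol, nrx1, a nucleoredoxin (GRMZM2G048324, chromosome 1, 70424654 to 70429257, plus strand), had 41.15%, 39.34% and 39.71% in late and 26.98%, 24.10% and 20.51% in early libraries (limma adjusted p = 0.0643, quasi-binomial 0.0849), on as few as 78 calls. The gene dba2 (GRMZM2G070360, chromosome 3, 212156397 to 212165756, minus strand) had 23.74%, 21.66% and 23.67% in late and 11.51%, 13.53% and 14.19% in early libraries (limma adjusted p = 0.0643, quasi-binomial 0.0711).

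**Figure D5:**
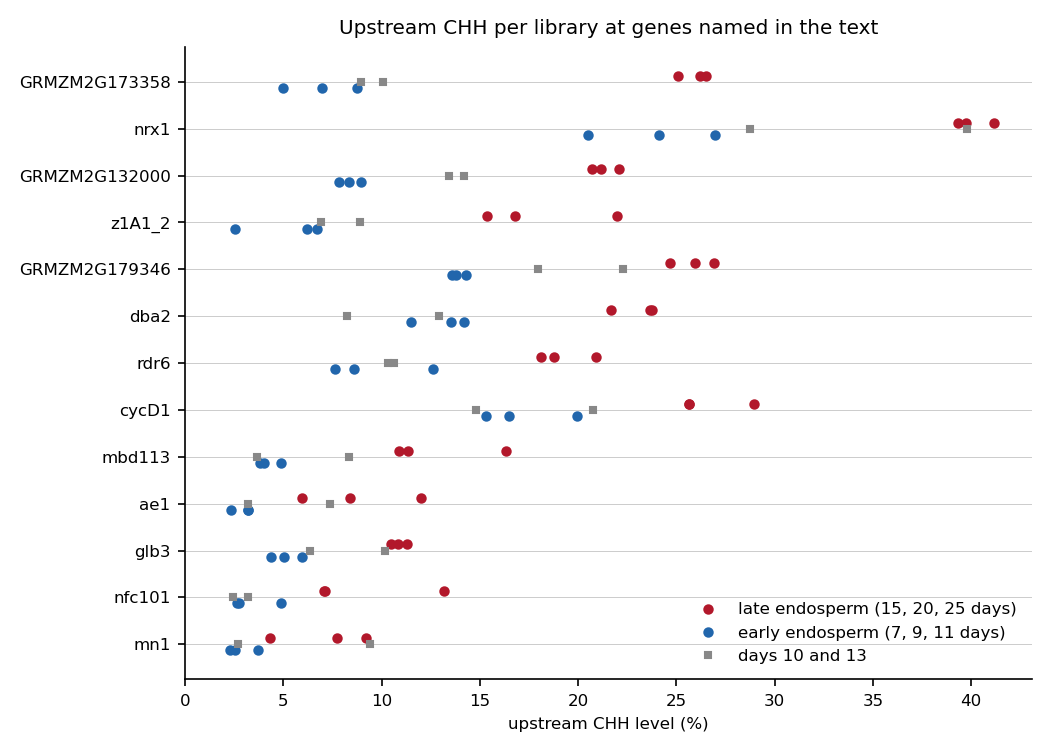
Upstream CHH level in percent (horizontal axis) of the 13 genes named by rule whose groups did not overlap (rows). The 3 late and 3 early libraries are coloured points, and days 10 and 13 are grey. Genes named in the text for other reasons are not drawn, among them o7, sdg118 and GRMZM2G000749, which were lower in late endosperm. The late points are right of the early ones in each row, by 4.25 points in the mean at mn1 and by 19.02 at GRMZM2G173358.

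Several of the 33 genes called in body CHH by the quasi-binomial model were among the named genes. The lipoxygenase gene lox1 (GRMZM2G156861, chromosome 3, 168695539 to 168839001, plus strand), a very long model with at least 40557 calls per library, had 9.00%, 8.98% and 8.40% in late and 5.26%, 5.45% and 5.94% in early libraries, a difference of 3.24 points (SE 0.315, limma adjusted p = 0.119, quasi-binomial 0.0069). The gene pdh1 (GRMZM2G145715, chromosome 3, 153925171 to 153929056, minus strand) had 8.82%, 6.96% and 7.17% in late and 1.76%, 2.32% and 1.67% in early libraries (limma adjusted p = 0.119, quasi-binomial 0.0208). GRMZM2G158191 (chromosome 2, 200745770 to 200752546, minus strand) had 7.58%, 7.68% and 7.42% in late and 2.18%, 2.67% and 1.97% in early libraries (limma adjusted p = 0.0668, quasi-binomial 0.0069). In both groups all 3 genes were above the highest organelle body CHH level, 0.855%. Bodies of over 6 kb had a mean CHH level of 1.94%, 1.96% and 2.08% in late and 1.94%, 1.79% and 1.63% in early libraries.

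Bodies methylated in CG and CHG in the leaf had mean body CG levels of 73.4%, 73.7% and 72.6% in late and 73.0%, 70.4% and 68.1% in early libraries over 9331 genes, which overlapped on day 7. All late libraries were above all early ones at 17.2% of these genes and below at 1.47%, against 8.28% and 4.95% of all genes. Their body CHG was 54.2%, 50.0% and 50.6% in late and 58.2%, 55.3% and 48.1% in early libraries, over 9452 genes, so day 11 alone was below the late libraries. Unmethylated bodies were lower in late endosperm in all 3 contexts: 1.96% and 2.13% in CG, 1.68% and 1.98% in CHG, and 0.910% and 1.01% in CHH, late then early, without overlap. These levels are close to those of the organelles. Over gene bodies, organelle CHH was also lower in late libraries, while chloroplast CG was 2.16% to 2.40% in late and 1.97% to 2.85% in early libraries and chloroplast CHG 2.20% to 2.5% and 2.10% to 2.72%, both overlapping. The part of conversion in the lower levels was not tested.

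Apart from GRMZM2G410487 with limma and GRMZM2G108284 with the quasi-binomial model, no named gene passed in CG or CHG. Several with large differences were thinly covered. The largest difference among the named genes was the upstream CG of GRMZM2G170322 (chromosome 4, 156519118 to 156521952, minus strand), with 73.49%, 81.25% and 83.33% in late and 4.55%, 21.74% and 5.00% in early libraries, a difference of 68.9 points (SE 5.60, limma adjusted p = 0.496). Its thinnest library had 12 calls, and day 10, with 80.64%, resembled the late group. The alcohol dehydrogenase gene adh2 (GRMZM2G098346, chromosome 4, 13395375 to 13398777, minus strand) had upstream CHG levels of 29.41%, 26.83% and 26.96% in late and 47.27%, 46.05% and 47.47% in early libraries, a difference of −19.2 points (SE 2.48, limma adjusted p = 0.793). The groups were tight, but its thinnest library had 41 calls. In body CG the gene AKHSDH1, for a bifunctional enzyme of aspartate-family amino acid synthesis (GRMZM2G365423, chromosome 4, 65819198 to 65826285, plus strand), had 46.60%, 42.60% and 43.66% in late and 27.01%, 32.77% and 31.46% in early libraries (SE 2.00, limma adjusted p = 0.443).

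Days 10 and 13 took no part in choosing the genes, and their levels at them are given as a description. At the 6487 genes with late above early upstream CHH, the mean level was 8.65%, 9.18% and 9.51% on days 15, 20 and 25 and 4.76%, 4.75% and 4.60% on days 7, 9 and 11. Day 10 had 5.72% and day 13 had 6.31%. Since these genes were chosen by the 6 libraries, their group levels are a description. A library left out of such a choice tends to fall between the groups whatever its day. The levels of days 10 and 13 at genes chosen in this way therefore cannot place these days in the course. Day 13 was above all early libraries at 53.6% of them and below all late libraries at 69.4%. Of the 2150 genes that differed by 5 points or more, day 10 averaged 8.42% and day 13 10.2%, with late libraries at 14.3%, 15.1% and 15.9% and early libraries at 7.14%, 7.24% and 7.06%. At the 192 bodies with late CHH higher by 5 points or more, days 10 and 13 had 7.26% and 9.60%, with late libraries at 14.1% to 15.0% and early ones at 5.36% to 6.20%. In upstream CHG the 2606 genes with late below early averaged 53.2% on day 10, within the early range of 50.4% to 55.9%, and 46.1% on day 13, above the late range of 41.6% to 43.7%.

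Contexts overlapped in part at the same genes. Of the 6409 genes with late above early upstream CHH that were measured in upstream CG too, 1068 (16.7%) also had late above early upstream CG, against 13.2% of all genes. Of those measured in upstream CHG too, 299 (4.67%) had late below early CHG, against 7.11%. Seen from the CG side, 22.1% of its higher genes were also higher in CHH, against 17.5%. The contexts share libraries and reads, so these shares are descriptions. The body measures of the same genes were close to the background, with 7.52% higher in body CG against 8.28% of all genes. Of the genes measured, 2072 share their upstream side with a neighbour that points away within 2000 bases. Among them 241 (11.6%) belong to the 6487, against 17.1% of all measured genes. The neighbour belongs to the 6487 too at 76 of the 241.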

How the data were processed

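Genomic DNA of Mo17 tissues was bisulfite-converted and sequenced as paired ends. The authors used Bismark, Bowtie2 and cutadapt, per the submitters' processing notes. The upstream region's width, the build and the tool versions were not given in the sources used here. Each of the deposited tables holds 39656 gene models, with a whole-number count of methylated calls per gene, region and context, per the file headers. The methylation level beside it was deposited by the authors as a percent with 2 decimals.

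Dividing the methylated count by the level gave the total calls. For 800474 values whose rounding (0.005 points) spans under 0.1 call, 100.0% gave a whole number within it. For counts of 0, totals were taken from the gene's other contexts, and a region at 0 in all 3 contexts was treated as missing. Reads carried no molecular identifiers, so calls can repeat a molecule. The 57 chloroplast and 124 mitochondrial models were kept out of tests and served as a conversion check. Models without a methylated call in a library, region and context were left out of its organelle level. For body CHH, 14 to 18 chloroplast and 40 to 43 mitochondrial models were thus used in the 6 libraries. No pair of libraries held identical values.

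A gene counted as measured when every one of the 6 libraries had 10 calls or more. CG and CHG tests also required a mean level of 1%. The main test was limma 3.58.1 (R 4.3.3) on levels of the 6 libraries, with no covariate, 1 fit per region and context, and Benjamini-Hochberg adjustment over all genes tested at 0.05. A quasi-binomial model on calls, with a dispersion moderated across genes and not below 1, was the alternative for counts. Library means were compared by exact permutation. Other alternatives were call minimums of 5 and 20, the arcsine scale, centring, days 10 or 13 added, a spread shared over all 11 libraries, and leaving out each library. Other steps ran on numpy 2.4.6, scipy 1.17.1, pandas 2.3.3 and matplotlib 3.10.9 under Python 3.11.15.

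Symbols, and nothing else, came from RefSeq's gene table (assembly Zm-B73-NAM-5.0): 18775 of 39475 nuclear models matched and 1151 had a symbol. Coordinates are those of the files. Some symbols, ae1 among them, are tied to more than 1 model. The genes, the 12 lists and the tests were chosen with earlier results of these data known. Counts of genes without overlap, classes by distance, length, position and chromosome, the 5-point limit, and subtraction of organelle levels were added after seeing the data, and some list patterns were trimmed after the files were read. Genes were named by rule: per region and context, genes with a symbol that passed, the member of each list that differed most where none passed, the 3 genes with the smallest p, and the 3 such genes with a symbol; where others are given, the text says so.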

Additional observations from a re-analysis of the deposited data

How the results depend on the processing

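No paired analysis was possible because each library is its own day and the labels give no shared replicate numbers. With 3 libraries a group, 1 per day, a steady course within a group counts as spread and lowers the number of calls, and late libraries were shallower than early ones. The mean differences (late minus early, in points) kept their direction except these: the median over genes instead of the mean gave −0.323 in body CG (exact permutation p = 0.5) and −0.15 in body CHH (p = 0.1, exact permutation), pooled calls gave 0.732 in body CHG (exact permutation p = 0.9), and days 10 and 13 added gave −0.0366 in body CHH (exact permutation p = 0.714). Leaving out each library in turn gave 0.385 to 1.31 in body CG, −1.91 to −0.15 in body CHG, 0.000599 to 0.122 in body CHH, 1.07 to 3.23 in upstream CG, −4.52 (without day 11) to −0.236 (without day 7) in upstream CHG and 1.14 to 1.39 in upstream CHH. Of genes called at 0.05, the single body CHG call was lost (0 genes) on the arcsine scale, with a trended and robust spread, with the quasi-binomial model, with day 10 or day 13 added, with the spread shared over 11 libraries, and without any 1 library (0 to 0). In body CHH 33 genes were called with the quasi-binomial model, 3 with day 10 added (GRMZM2G158191, GRMZM2G341499 and GRMZM5G807234), 1 with the shared spread (GRMZM2G158191), and 0 to 1 without any 1 library (GRMZM2G380377 without day 15, GRMZM5G882631 without day 20). In upstream CHG the quasi-binomial model called 1. In upstream CHH 1091 genes were called with it, 446 with day 10 added (444 higher), 64 with the shared spread, all higher, 1 with library medians subtracted (GRMZM2G132000) and 0 without any 1 library. The cause of these changes was not tested. The counts of genes without overlap in upstream CHH were 4735 above and 991 below with day 10 added and 3472 and 777 with day 13 added. Leaving out each library in turn, these counts (above and below) were 8119 to 9999 and 2040 to 2851 in upstream CHH, 5977 to 9848 and 1471 to 2496 in upstream CG, 1491 to 3494 and 3184 to 11142 in upstream CHG, 3884 to 5337 and 2740 to 3492 in body CG, 1923 to 3114 and 3759 to 6809 in body CHG, and 2638 to 3242 and 4431 to 4936 in body CHH. With 5 libraries in place of 6 separation is easier to meet, so each is larger than with 6. The direction turned in upstream CHG without day 7 and in no other of these pairs.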
